A study of Mus musculus with 9 samples.

Results

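Transcripts of 8 hepatocyte transcription factors were followed across 9 arrays of mouse liver RNA: Hnf4a, Foxa1, Foxa2, Foxa3, Cebpa, Cebpb, Onecut1 and Prox1. The genes were chosen by name, and every probe set that the array annotation gives to 1 of these symbols was taken, which came to 15 of 45037 probe sets, or 8 of 18193 annotated genes. There were 4 probe sets for Hnf4a, 3 for Prox1, 2 each for Cebpb and Onecut1 and 1 for each other gene, and all 15 passed the filter on dim probe sets. The mice were females of the MRL +/+ strain, which develops autoimmunity with age, and all were 11 weeks old at death. The DCAC group received dichloroacetyl chloride, the DCAA group dichloroacetic anhydride, each by intraperitoneal injection of 0.2 mmol/kg in 100 µl of corn oil, 2 times a week over 6 weeks, and the control group corn oil alone. Each group had 3 mice with 1 array per mouse, killed 24 h after their final injection. The labels call the controls untreated, while the design text gives them corn oil. DCAC carries chloride and DCAA dichloroacetate as the leaving group on the same dichloroacetyl moiety.

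These proteins bind DNA as a mutually regulating network in hepatocytes. HNF4A, a nuclear receptor, sustains genes of plasma proteins, lipid transport and bile acid synthesis, and it also works in the proximal tubule of the kidney. FOXA1, FOXA2 and FOXA3 are forkhead pioneer factors that open chromatin at liver enhancers, CEBPA and CEBPB are basic leucine zipper factors of metabolism and of the acute phase response, and the homeodomain proteins ONECUT1 (HNF6) and PROX1 act in liver development and in bile acid control.

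The upstream sequences of Hnf4a, Foxa2 and Foxa1 are shown because all matches to the motifs searched lay in these 3 genes and because the signals of Foxa1 and Foxa2 were correlated across livers. Hnf4a has an upstream promoter, P2, and a downstream promoter, P1, which the adult liver and kidney use, and the P2 window is the one shown. Each line gives the 250 bases before an annotated start, 5′ to 3′ on the strand of the gene, from RefSeq in build GRCm38.p6, with motif matches in capitals. The windows are chr2:163506607-163506856 (plus strand) for Hnf4a P2, chr2:148046970-148047219 (minus) for the outermost Foxa2 start and chr12:57546112-57546361 (minus) for Foxa1.
Hnf4a P2: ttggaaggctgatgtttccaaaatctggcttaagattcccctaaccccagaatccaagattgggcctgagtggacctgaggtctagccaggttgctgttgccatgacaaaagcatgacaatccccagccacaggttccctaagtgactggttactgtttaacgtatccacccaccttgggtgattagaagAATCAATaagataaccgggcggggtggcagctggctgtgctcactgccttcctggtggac
Foxa2: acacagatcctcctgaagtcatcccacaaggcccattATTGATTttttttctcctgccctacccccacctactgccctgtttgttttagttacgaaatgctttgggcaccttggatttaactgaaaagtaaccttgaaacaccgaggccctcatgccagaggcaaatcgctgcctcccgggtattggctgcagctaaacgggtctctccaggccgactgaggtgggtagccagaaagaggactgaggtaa
Foxa1: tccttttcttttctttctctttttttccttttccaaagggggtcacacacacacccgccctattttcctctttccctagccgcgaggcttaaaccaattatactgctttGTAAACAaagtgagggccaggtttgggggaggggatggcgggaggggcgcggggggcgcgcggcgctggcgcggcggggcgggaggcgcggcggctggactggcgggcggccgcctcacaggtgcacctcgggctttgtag

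Both strands of the 12 windows annotated to the 8 genes were searched for 4 motifs. The ONECUT motif ATTGATT was found in 2 of the 12, 213 bases before the outermost Foxa2 start and, on the other strand, 60 bases before the Hnf4a P2 start, and in 2.61% of all 32851 promoter windows. The FOXA motif TGTTTAC was found in 1 of the 12, in Foxa1 at 141 bases on the other strand, and in 3.17% of all windows. No window of the 8 genes held the HNF4 motif AAAGTCC or the C/EBP motif TTGCNNAA, which were in 3.58% and 9.56% of all windows. No matches of different motifs overlapped.

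Control 2 was not like the other arrays. Its median Spearman correlation with them was 0.806, while the other 8 correlated with each other at 0.859 to 0.929. All 16 measured kidney markers of 18 listed were higher on it than on every other array, with a summed signal of 217299 on control 2, against 2336 to 3331 on the others. Umod, which encodes uromodulin of the thick ascending limb, read 20921 on control 2 and 8.90 to 143 elsewhere. All 14 measured hepatocyte markers were lower, with a sum of 12889.5 on control 2 and 467873 to 646264 on the others. The labelled tissue, liver, was therefore borne out by its markers on 8 arrays and not on control 2, and the groups were compared on those 8, with DCAC 1 to 3, DCAA 1 to 3, control 1 and control 3. The arrays also differed in how far signal declined toward the 5′ end of a transcript, although the design text says that only undegraded RNA was used. For the control transcript of pyruvate carboxylase the 3′/5′ ratio was 6.43 to 12.8 on DCAC 3 and all DCAA arrays and 2.85 to 3.99 on the rest. No control had a high ratio and no DCAA array a low one. In these whole-organ samples, fewer cells of a type and less RNA per cell cannot be told apart.

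Signals are given on the linear scale of the array software, and levels are not compared between probe sets. Of the 8 factors, Hnf4a alone had a signal on control 2 within the range of the other arrays. Its 4 probe sets lay within the range of the other 8 arrays, as did 51.4% of all probe sets that passed the filter. By its leading probe set, the one with the highest mean, Hnf4a read 12777 on control 2, against 9429 to 15132 on the others. The other 11 probe sets, of 7 genes, all read lower on control 2 than on every other array, as did 23.8% of all probe sets. Of the forkhead genes, 2 were at the bottom of the scale: Foxa1 read 10.4 on control 2 against 605 to 1409.7 on the others, and Foxa2 11.0 against 1722 to 4417. Foxa3 read 130 against 1394 to 2931, between the 25th percentile of control 2, 59.8, and its median, 183.5. Foxa1, Foxa2, both Onecut1 probe sets and 1 Prox1 probe set were under the 25th percentile of control 2, which was used as a floor, so their fold differences are lower bounds. The mean of the others was at least 43.0-fold higher for Foxa2, at least 15.1-fold for Foxa1, and 16.2-fold higher for Foxa3. For Onecut1 it was at least 12.4-fold by the leading probe set and at least 5.18-fold by the other. For Prox1 it was at least 10.5-fold by the leading probe set and 3.95-fold and 5.90-fold by the others, which were above the floor. By leading probe sets the C/EBP genes had the smallest fold differences of the 7 genes, while the other Prox1 probe sets had smaller ones. Cebpa read 2768 on control 2, against 13218 to 21985, a 6.17-fold difference in the means, and Cebpb 1005 against 5561 to 8592.5, or 7.07-fold. With 1 array there is no test of these differences.

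**Figure D1:**
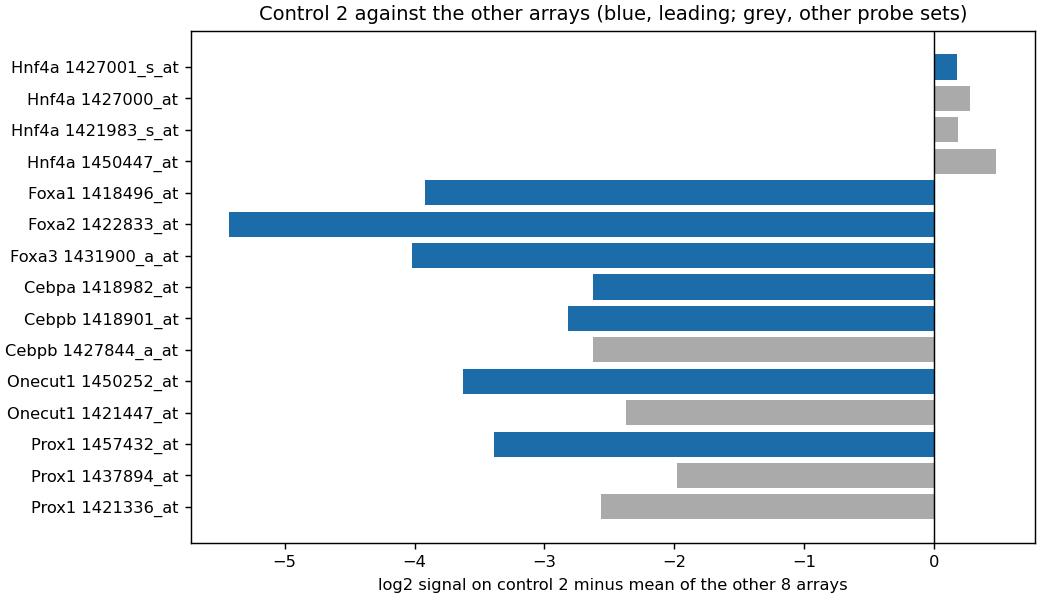
Log2 signal on control 2 minus the mean of the other 8 arrays for each of the 15 probe sets, with signals raised to the floor of their array (blue bars, leading probe set of a gene; grey bars, other probe sets). The 4 Hnf4a bars lie between 0.18 and 0.48, and the other 11 between -5.42 and -1.98, 5 of them limited by the floor.

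Genes related to the factors divided in the same comparison. Of 40 measured liver transcription factors outside the set, 26 were lower on control 2 than on all other arrays, 7 were higher and 7 were within the range. Cebpd, another C/EBP gene, picked here after its values were seen, read 2121.5 on control 2 and 204 to 598 on the others, opposite to Cebpa and Cebpb. Of 10 measured coregulators 7 were higher on control 2, as were 24.8% of all probe sets, among them Ppargc1a, a coactivator of HNF4A, at 2540.1 against 443 to 887. Of 22 measured HNF4A target genes 20 were lower on control 2 although Hnf4a itself was within the range, and their summed signal was 29546 on control 2, against 457740.0 to 586966 on the others.

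**Figure D2:**
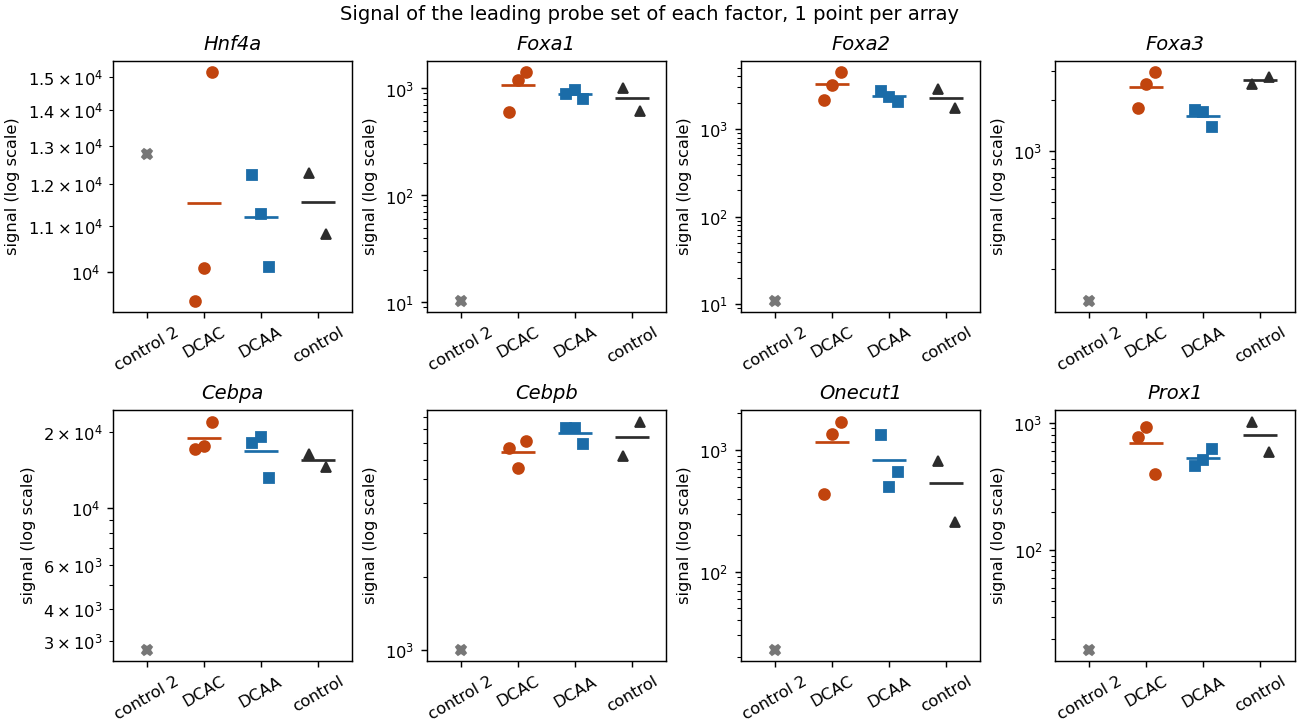
Signal (log axis) of the leading probe set of each factor, 1 point per array, with a line at the mean of each group of 2 or 3 arrays. Control 2 lies among the other arrays for Hnf4a and under all of them for the other 7 genes, while the DCAC, DCAA and control arrays overlap for most genes.

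Between the liver groups, no factor passed the test with either compound. Of the 15 probe sets limma called 0 in each comparison at a Benjamini-Hochberg adjusted p under 0.05, against 0.0326% of 24531 probe sets called for DCAC versus control, 0.0815% for DCAA versus control and 0.00408% for DCAC versus DCAA. At an unadjusted p under 0.05 there were 0, 2 and 3 of the 15 in that order, against 5.02%, 12.6% and 9.28% of all probe sets. The smallest adjusted p was 0.967 for DCAC, 0.188 for DCAA and 0.433 between the compounds. The median reach of the 95% interval was 0.61 to either side on the log2 scale against control. Changes smaller than that were mostly not detectable with these mice. That reach is the limit of a single unadjusted test, and larger differences could also fail after adjustment. Foxa3 with DCAA, at -0.71, did not pass (limma adjusted p = 0.212). The DCAC arrays lay all above both controls for 2 of the 15 probe sets and all below for 2, against 11.2% and 12.5% of all probe sets. The DCAA arrays lay all above for 0 and all below for 3, against 16.1% and 15.6%.

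**Figure D3:**
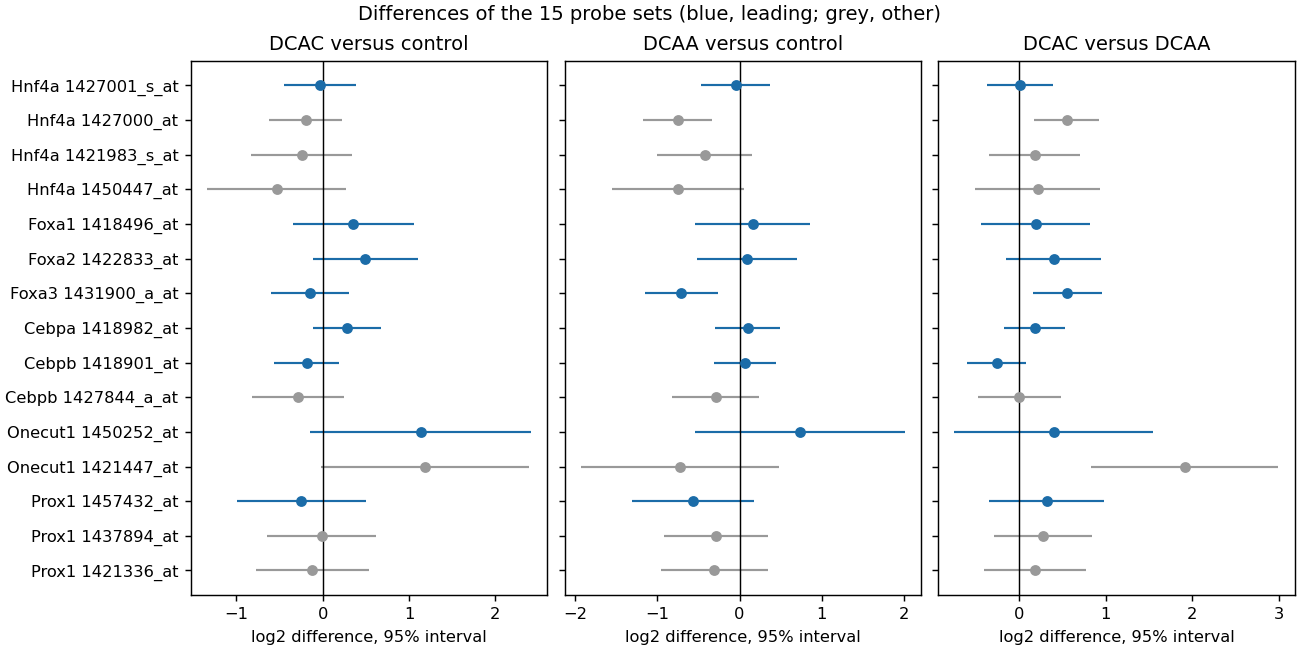
Log2 differences of the 15 probe sets in the 3 comparisons, with 95% intervals from limma (blue, leading probe set; grey, other probe sets). In DCAC versus control the interval of every probe set includes 0. Those of Foxa3 and of Hnf4a 1427000_at lie below 0 in DCAA versus control and above 0 in DCAC versus DCAA. The interval of Onecut1 1421447_at also lies above 0 in DCAC versus DCAA.

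Hnf4a had overlapping groups by its leading probe set, 1427001_s_at, whose suffix marks probes shared by several transcripts. The signal was 9429, 10097 and 15132 with DCAC, 12229, 11278 and 10120.3 with DCAA, and 12290.4 and 10831 in controls. The highest array was DCAC 3. The mean signal was 11553 ± 3118 in the DCAC group and 11209 ± 1056 in the DCAA group (SD, n = 3 each), against 11561 ± 1032 in the controls (SD, n = 2). The log2 difference from control was -0.03 (95% interval -0.45 to 0.39) with DCAC and -0.046 (-0.47 to 0.38) with DCAA. With the arrays blocked by their 3′/5′ ratio, high or low, these were -0.24 and -0.68, and DCAC versus DCAA stood at 0.44. In that fit DCAC versus control rests on DCAC 1 and 2, and DCAC versus DCAA on DCAC 3 alone. DCAA is set against control only through DCAC 3.

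The dimmer Hnf4a probe sets did not follow the leading one. By 1427000_at the signal was 6173, 6505 and 4588 with DCAC, 4240, 4440.1 and 3104.5 with DCAA, and 6808 and 6274 in controls. All DCAA arrays lay below both controls and below all DCAC arrays, and within the DCAC group DCAC 3 was lowest. The log2 difference of DCAA from control was -0.75 (SE 0.19, limma adjusted p = 0.188). With the ratio block it was -0.29 (adjusted p = 0.919). By 1450447_at the signal was 1014, 855 and 337.5 with DCAC, 529, 610 and 575 with DCAA, and 1084 and 853 in controls, with DCAC 3 again below the other DCAC arrays. Here the DCAA difference of -0.75 (adjusted p = 0.428) turned to 0.71 (0.809) with that block. By 1421983_s_at all DCAC arrays, at 3112 to 3503, lay below both controls, at 3769 and 4033.5, while DCAA ran from 1763 to 3878.5.

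The gap between a dimmer Hnf4a probe set and the leading one differed between the liver arrays of high and low 3′/5′ ratio. Among the arrays of high ratio it did not follow the ratio for 1450447_at, at -4.53 on DCAA 1 (ratio 6.43) and -4.14 on DCAA 3 (10.9). On the 4 liver arrays of high ratio the log2 signal of 1427000_at minus that of 1427001_s_at was -1.72 to -1.34, against -0.85 to -0.61 on the 4 of low ratio. For 1450447_at the gap was -5.49 to -4.14 against -3.67 to -3.22, and for 1421983_s_at it was -2.52 to -1.66 against -1.61 to -1.52. In all 3 cases the arrays of high and low ratio did not overlap, and DCAC 3 stood with the DCAA arrays and not with DCAC 1 and 2. The 3 gaps subtract the same probe set, so they are not separate cases. How often such gaps separate over all genes was not counted. For the dimmer probe sets of Cebpb, Onecut1 and Prox1 the arrays overlapped. For Onecut1 they did so only narrowly, at -3.286 to -1.257 for high ratio against -1.285 to -0.020 for low. The class was drawn from the ratios, and whether the ratio has a part in the group differences was not tested.

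**Figure D4:**
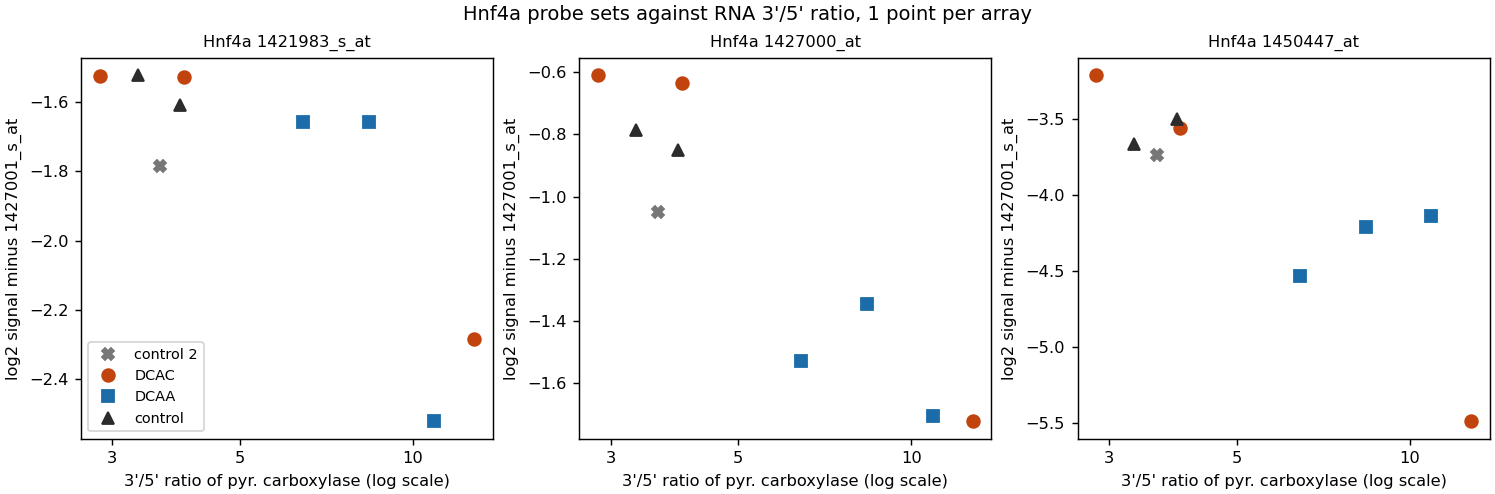
Log2 signal of each dimmer Hnf4a probe set minus that of 1427001_s_at on the same array, plotted against the 3′/5′ ratio for pyruvate carboxylase (log axis), 1 point per array. The 4 liver arrays with ratios of 6.43 or more lie below the 4 with ratios of 3.99 or less in each panel, and control 2, with a ratio of 3.63, lies below the 4 of low ratio in every panel, at -1.78 for 1421983_s_at (within the range of the high-ratio arrays), -1.05 for 1427000_at and -3.74 for 1450447_at (between the classes).

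Foxa3, whose product takes part in fasting glucose control, was the forkhead gene with separate DCAA and control values. Its signal was 1810.3, 2519 and 2931 with DCAC, 1759, 1697 and 1394 with DCAA, and 2489.8 and 2773 in controls. All DCAA arrays lay below both controls and below all DCAC arrays, while DCAC and control overlapped. The DCAA mean was 1617 ± 195 (SD, n = 3), against 2631 ± 200.2 (SD, n = 2) in controls, and the log2 difference was -0.71 (SE 0.21, limma adjusted p = 0.212), which did not pass. It was -1.17 with the arrays blocked by ratio and 0.74 with control 2 among the controls, neither passing. With DCAC the difference from control was -0.15 (95% interval -0.59 to 0.30).

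Foxa1 and Foxa2 overlapped in all groups. Foxa1 read 605, 1211 and 1409.7 with DCAC, 885.5, 977 and 793 with DCAA, and 1004 and 622 in controls. Foxa2, whose product also serves in glucose and lipid metabolism in the fasted liver, read 2152.5, 3147 and 4417 with DCAC, 2712, 2344 and 2042 with DCAA, and 2834 and 1722 in controls. For both genes the highest array was DCAC 3, and control 3 and DCAC 1 were among the 3 lowest arrays. The log2 difference from control was 0.49 (95% interval -0.12 to 1.10) for Foxa2 and 0.36 (-0.35 to 1.06) for Foxa1 with DCAC, and 0.089 (-0.52 to 0.70) and 0.16 (-0.54 to 0.86) with DCAA.

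Of the C/EBP genes, Cebpa, whose product restrains proliferation and drives metabolic genes, read 17139, 17685 and 21985 with DCAC, 18062, 19080.3 and 13218 with DCAA, and 16421 and 14600.4 in controls. All DCAC arrays lay above both controls, and the DCAA arrays spanned them. The log2 difference was 0.28 (SE 0.18, limma adjusted p = 0.978) with DCAC and 0.098 (SE 0.18, adjusted p = 0.855) with DCAA. Cebpb, which cytokines induce in the acute phase response, read 6675, 5561 and 7178 with DCAC, 8064, 8099.8 and 6934 with DCAA, and 6241 and 8592.5 in controls. The groups overlapped, with differences from control of -0.19 (95% interval -0.56 to 0.19) with DCAC and 0.069 (-0.31 to 0.45) with DCAA. By its other probe set, 1427844_a_at, all DCAC arrays, at 1650.2 to 1786, lay below the controls at 2054 and 2092, with a difference of -0.28 (adjusted p = 0.981), and the DCAA arrays ran from 1240.4 to 2549.

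Onecut1 was the most variable of the factors between mice, and its 2 probe sets differed in which arrays were high. By the leading probe set, 1450252_at, it read 432, 1354 and 1714 with DCAC, 1323, 499 and 656 with DCAA, and 806.5 and 257 in controls, a range of 6.66-fold over the 8 arrays. The groups overlapped, and the differences from control were 1.14 (95% interval -0.14 to 2.42) with DCAC and 0.73 (-0.55 to 2.01) with DCAA. By 1421447_at it read 426.5, 971 and 590.1 with DCAC, 326, 209 and 56.8 with DCAA, and 331 and 228.5 in controls. All DCAC arrays then lay above all DCAA and control arrays. The differences from control were 1.19 (SE 0.56, limma adjusted p = 0.967) with DCAC and -0.73 (SE 0.56, adjusted p = 0.618) with DCAA. The DCAA 3 signal of 56.8 was under the floor of its array, 67.3, and without that array the DCAA difference was -0.076. Cholangiocytes also express Onecut1. The summed signal of 5 of 7 cholangiocyte markers was 958 to 1100.2 with DCAC, 846 to 1367 with DCAA and 687 to 1262 in controls. Only 2 of these 5 passed the filter on dim probe sets, and the brightest, Epcam, read 333 to 997 over the 8 arrays. The sum is therefore a weak measure of these cells.

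Prox1, which acts as a corepressor of the nuclear receptors HNF4A and NR5A2 at bile acid genes, overlapped between the groups by each of its 3 probe sets. By the leading one, 1457432_at, it read 769, 917 and 396 with DCAC, 458, 508 and 617 with DCAA, and 1019 and 590.3 in controls. The differences from control were -0.25 (95% interval -0.99 to 0.50) with DCAC and -0.57 (-1.31 to 0.18) with DCAA. By the other probe sets they were -0.012 and -0.12 with DCAC and -0.29 and -0.31 with DCAA. Lymphatic endothelium also makes PROX1. The summed signal of all 7 endothelial and lymphatic markers was 5220 to 8021 with DCAC, 6212 to 7400.3 with DCAA and 7487 to 8539 in controls. Over the 8 arrays Reln read 1900 to 2910 and Clec4g 986 to 2996, while Lyve1 read 140 to 462 and Pdpn 125 to 342. The sum thus mostly follows the brighter genes and is not a measure of lymphatic endothelium alone.

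The 2 compounds were given at the same molar dose and time, so they were compared directly as 1 pair. All DCAC arrays lay above all DCAA arrays for 3 of the 15 probe sets and all below for 0, against 6.32% and 7.63% of all probe sets. The 3 were Onecut1 1421447_at, Foxa3 and Hnf4a 1427000_at. The log2 difference, DCAC minus DCAA, was 1.91 (95% interval 0.83 to 2.99) for the Onecut1 probe set, 0.56 (0.16 to 0.96) for Foxa3 and 0.55 (0.17 to 0.93) for the Hnf4a probe set. None passed, with limma adjusted p of 0.433, 0.465 and 0.451 in that order. The Onecut1 value was 1.26 without DCAA 3, whose signal was under its floor. For the Hnf4a probe set the value was 0.24 with the arrays blocked by ratio, and for Foxa3 0.87. Both of these blocked values set DCAC 3 alone against the DCAA arrays. Among the other leading probe sets the difference was 0.015 (interval -0.36 to 0.39) for Hnf4a, 0.20 (-0.43 to 0.83) for Foxa1, 0.40 (-0.14 to 0.95) for Foxa2, 0.18 (-0.17 to 0.53) for Cebpa, -0.26 (-0.59 to 0.083) for Cebpb, 0.40 (-0.74 to 1.55) for Onecut1 and 0.32 (-0.35 to 0.99) for Prox1. These intervals leave room for differences in either direction and do not show that the compounds act alike.

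Foxa2 varied with Foxa1 and with the leading probe set of Onecut1 across the 8 livers by Pearson's r, while no pair passed by Spearman's rho after adjustment. Over 28 pairs of leading probe sets, Pearson's r was highest for Foxa1 and Foxa2, at 0.908 (exact permutation p = 0.00141, adjusted over the pairs 0.0396; n = 8). Spearman's rho was 0.905 (exact permutation p = 0.00456, adjusted 0.0639). For Foxa2 and Onecut1 r was 0.895 (exact permutation p = 0.00285, adjusted 0.0399) and rho 0.905 (exact permutation p = 0.00456, adjusted 0.0639). For Foxa1 and Onecut1 r was 0.84 (exact permutation p = 0.0112, adjusted 0.104) and rho 0.857 (exact permutation p = 0.0107, adjusted 0.100). Without the 2 arrays farthest from the median of the first gene, r was 0.929, 0.802 and 0.769 for the 3 pairs, and for deviations from the group means it was 0.923, 0.91 and 0.827. With the other Onecut1 probe set r was lower, at 0.641 with Foxa2 (rho 0.738, exact permutation p = 0.0868 for r and 0.0458 for rho) and 0.473 with Foxa1 (rho 0.50, exact permutation p = 0.234 for r and 0.216 for rho). For deviations from the means of the 2 classes of 3′/5′ ratio, a check chosen after seeing the data, r was 0.903, 0.892 and 0.818. Prox1 and Cebpb ran in opposite directions, with r of -0.734 (exact permutation p = 0.0402, adjusted 0.201) and rho of -0.738 (exact permutation p = 0.0458, adjusted 0.321).

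**Figure D5:**
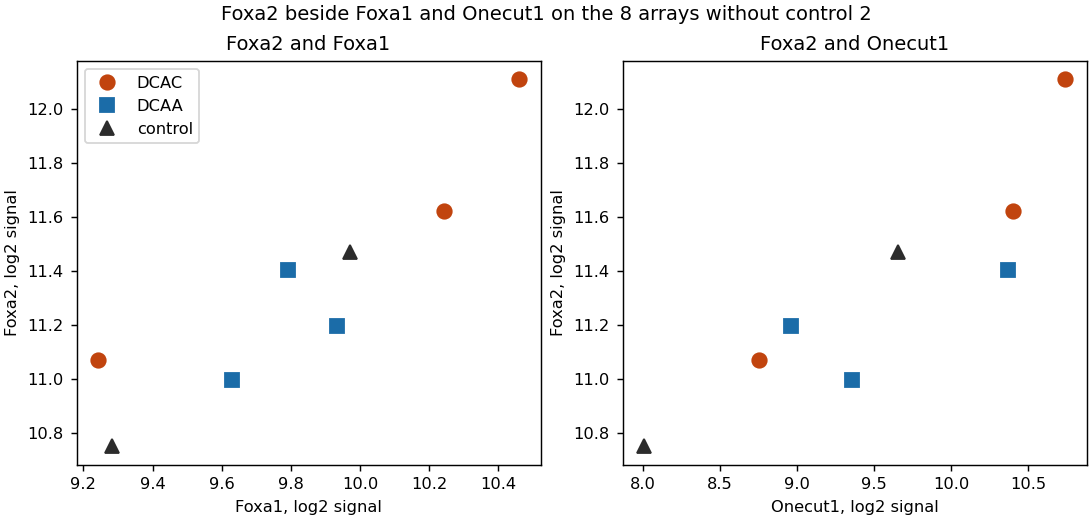
Log2 signal of Foxa2 against that of Foxa1 (left) and of Onecut1 (right) by leading probe sets, 1 point per array, for the 3 DCAC, 3 DCAA and 2 control arrays. All 3 genes are highest on DCAC 3, and control 3 is lowest for Foxa2 and Onecut1.

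The genes most like each factor over the same 8 arrays, by Pearson's r of log2 signal, were all outside the lists examined. For Foxa1 they were Nsd3 (r = 0.977) and Rnf207 (0.951), for Foxa2 Poli (0.960) and Cstf2t (0.948), and for Onecut1 Fmo2 (0.972) and Pacsin3 (0.953). For Hnf4a they were Ap5m1 (0.973) and Rab1b (0.961), for Foxa3 Cldn12 (0.978) and Irf2bp1 (0.969), and for Cebpa Gjb2 (0.984) and Dctn3 (0.970). For Cebpb they were Extl2 (0.938) and Hebp2 (0.931), and for Prox1 Mnat1 (0.964) and Rpe (0.954). With 8 arrays and so many genes such values are a description only.

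Other liver transcription factors were read beside the 8. Of 38 tested, 0 passed in any of the 3 comparisons, and their median log2 difference was 0.053 with DCAC, against -0.029 over all probe sets, and 0.071 with DCAA, against -0.0081. Dbp, a clock-controlled PAR bZIP factor, stood at 2.42 (SE 0.83, limma adjusted p = 0.855) with DCAC and 2.49 (SE 0.83, 0.262) with DCAA. The T-box gene Tbx3 stood, with adjusted p in parentheses, at 0.84 (0.683) with DCAC and 1.01 (0.163) with DCAA, and Nr1h4, the bile acid receptor FXR, at 0.51 (0.693) with DCAC. Ppara, the fatty acid receptor, stood at 1.01 (0.165) with DCAA. For each of these the arrays of the compound lay all above the controls, as did 5 of 38 factors with DCAC and 10 of 38 with DCAA, against 11.2% and 16.1% of all probe sets. All below the controls were 2 of 38 with DCAC and 3 of 38 with DCAA, against 12.5% and 15.6%. Between the compounds Hhex, a homeobox gene of liver development, stood 0.84 higher with DCAC (SE 0.17, limma adjusted p = 0.403) and did not pass, and it stood at -0.80 (0.163) for DCAA versus control. Of 10 coregulators 0 passed; Ppargc1a stood at 0.79 (0.188) with DCAA and 0.23 (0.981) with DCAC.

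The targets of the factors were read from lists of known genes. Of 22 HNF4A targets, 1 rose with DCAC and 0 with DCAA, and the median was 0.18 and 0.25. The gene that rose was Cyp7a1, whose enzyme limits the rate of bile acid formation, by 2.03 (SE 0.28, limma adjusted p = 0.0312) with its brighter probe set, while the other stood at 0.93 (0.634). That call held in 6 of 15 alternative settings and was lost, among others, without DCAC 2, without DCAC 3 and with the arrays blocked by ratio. For DCAC versus control the ratio block gives the same difference as leaving out DCAC 3, 1.83 for Cyp7a1. The losses in these settings are therefore not separate. Over the 15 settings the Cyp7a1 value ranged from 1.51 to 3.67. Of 9 FOXA and ONECUT1 targets and 8 metabolic C/EBP targets 0 passed with either compound, with medians of 0.17 and 0.11 with DCAC and 0.36 and 0.24 with DCAA. Ass1, of the urea cycle, stood at -1.38 (0.176) with DCAC. Of 12 acute phase targets of C/EBP factors 4 rose with each compound, Saa1, Saa2, Orm2 and Lcn2, by 3.43 to 4.59 with DCAC and 2.95 to 3.98 with DCAA, while Cebpb and Cebpa stood at the values above. Their calls held in 7 to 12 of 15 settings. All were lost with all 9 arrays and without the filter (highest adjusted p over all settings 0.764). With the arrays blocked by ratio, all but that of Saa1 with DCAC were lost. The lowest value in any setting was 2.47. The list's median was 1.08 with DCAC and 0.92 with DCAA. The summed signal of 14 hepatocyte markers was 468622 to 600320.0 with DCAC, 580727 to 646264 with DCAA and 467873 to 484163 in controls, and 0 of the 14 passed. All above the controls were 2 of the 14 with DCAC and 10 with DCAA, against 11.2% and 16.1% of all probe sets, and 0 lay all below. All DCAA arrays had a high 3′/5′ ratio and both controls a low one, and the part of the ratio here was not tested. Neutrophil and macrophage markers, cells that also use C/EBP factors, summed over 12 of 13 to 8802 to 11198 with DCAC, 10848 to 13314 with DCAA and 7051 to 16330 in controls, with Csf1r, a macrophage receptor, the brightest (2945 and 8656 in the controls). Of the 11 tested, 5 lay all above the controls with DCAC and 4 with DCAA, against 11.2% and 16.1% of all probe sets, and 0 lay all below. The neutrophil genes S100a8, S100a9, Elane and Prtn3, picked after their values were seen, were above both controls on all 6 treated arrays. Ngp and Mpo, neutrophil genes of the same list, overlapped the controls with both compounds. Ngp read 381 to 411 with DCAC, 307 to 698 with DCAA, and 487 and 366 in controls. Over the 11 tested, 6 log2 differences were positive with DCAC and 8 with DCAA. Prtn3 read 711 to 778 with DCAC, 590.2 to 784 with DCAA, and 222 and 45.0 in controls, with differences of 2.77 (limma adjusted p = 0.0648) and 2.68 (0.0521). The control 3 signal of 45.0 was under the floor of its array, 54.3, so these differences depend on a value raised to the floor. None of the 11 passed. The part of these cells in the values of the factors was not tested.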

How the data were processed

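Probe set signals of 9 Affymetrix arrays were used, 1 array per mouse. The deposited values are linear signal intensity, for which the submitters' processing notes name GCOS without a version. On each array the mean was 500.0 once 2% of probe sets were trimmed at either end. Detection calls were not used here. Of 36 pairs of arrays 0 were identical.

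A floor was set at the 25th percentile of each array before the log2 step. The filter required a signal over the median of its array on 3 or more of 8 arrays, which left 24531 probe sets. The 64 control probe sets were left out. The comparisons used limma (version 3.58.1, R 4.3.3; lmFit and eBayes with trend, two-sided), with all groups in 1 model without covariates, and p was adjusted by Benjamini-Hochberg over all kept probe sets. The fit was checked on simulated data. Relations between genes used exact permutation of 8 arrays, two-sided.

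Groups and replicate numbers follow the labels. Deviations of arrays with the same number correlated at -0.041 to 0.027 between groups, and mice were treated as unpaired. Named genes are all probe sets of the 8 genes, the 2 genes most like each by r, and from each list those that passed or else up to 4 with the largest change and no overlap. Of listed genes without a probe set of 1 symbol, none was analysed here. Members, lists, tests and alternatives were chosen with earlier results of these data known. Alternatives were all 9 arrays, quantile normalization, an offset of 32 without floor, no filter, replicate number or 3′/5′ ratio class as a block, only the groups compared, and leaving out each array. Sequences are from RefSeq.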

Additional observations from a re-analysis of the deposited data

How the results depend on the processing

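No member passed limma's test in any of the 15 alternatives, and the lowest adjusted p was 0.0907. Of 24 differences of leading probe sets 9 kept their sign throughout. Some alternatives could not move a difference, such as dropping the filter, fitting only the groups compared or leaving out an array of the third group. The 15 alternatives are therefore not separate checks of the sign. The number of probe sets called for DCAC versus control was 8, and it was 0 with all 9 arrays (1336 at an unadjusted p under 0.05), 1 without the filter, 2 with the arrays blocked by 3′/5′ ratio, and between 2 (without DCAC 3) and 14 (without DCAA 1) with an array left out. For DCAA versus control it was 20, and 0 with all 9 arrays (3025 unadjusted), 4 without the filter, 0 with the ratio block (1491 unadjusted), 13 with only the groups compared, and between 3 (without DCAA 3) and 87 (without DCAA 1) with an array left out. For DCAC versus DCAA it was 1, and 0 with all 9 arrays (1446 unadjusted), 0 without the filter (5171 unadjusted), 3 with the ratio block, 2 with only the groups compared, and 0 to 2 with an array left out.

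With control 2 among the controls the log2 difference turned to 1.30 with DCAC and 0.74 with DCAA for Foxa3, 0.77 with DCAC for Cebpb, and 0.99 with DCAC and 0.67 with DCAA for Prox1; control 2 was low for these genes. With the ratio block the DCAA difference turned to -0.56 for Foxa1, -0.67 for Foxa2, -0.24 for Cebpa, -0.17 for Cebpb, -0.43 for Onecut1 and 0.52 for Prox1, while for Prox1 DCAC versus control turned to 0.11 and DCAC versus DCAA to -0.40. Quantile normalization turned DCAC versus DCAA to -0.021 for Hnf4a and the DCAA difference to -0.051 for Cebpa. The cause was not tested. With the replicate number as a block, Hnf4a stood at 0.0064 with DCAC, and 7, 17 and 1 probe sets were called in the 3 comparisons. Arrays with the same number correlated at -0.041 to 0.027 and others at -0.066 to 0.074. The deviations of the 2 controls mirror each other, and the groups are small. These values therefore cannot show whether the numbers mark a batch.

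Leaving out each array in turn, the DCAC versus control difference ranged from -0.24 to 0.099 for Hnf4a, -0.30 to 0.049 for Foxa3, -0.42 to 0.044 for Cebpb and -0.64 to 0.15 for Prox1. Leaving out each array in turn, the DCAA versus control difference ranged from -0.14 to 0.045 for Hnf4a, -0.19 to 0.50 for Foxa1, -0.27 to 0.45 for Foxa2, -0.0031 to 0.26 for Cebpa, -0.16 to 0.30 for Cebpb and -0.092 to 1.56 for Onecut1. Leaving out each array in turn, the DCAC versus DCAA difference ranged from -0.20 to 0.15 for Hnf4a and -0.043 to 0.57 for Foxa1. Without a change of sign, DCAC versus control ranged over 0.31 to 1.96 for Onecut1, 0.010 to 0.73 for Foxa1, 0.13 to 0.85 for Foxa2 and 0.17 to 0.37 for Cebpa. DCAA versus control ranged over -0.96 to -0.17 for Prox1, and DCAC versus DCAA over 0.016 to 1.01 for Onecut1, 0.15 to 0.67 for Foxa2, 0.020 to 0.28 for Cebpa, -0.33 to -0.15 for Cebpb and 0.076 to 0.68 for Prox1.

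The 2 control livers, 3 mice a group and the coincidence of high 3′/5′ ratios with DCAA limit these comparisons: no DCAA array had a low ratio, so with the ratio as a block DCAA was set against control only through DCAC 3. Signals under an array's floor have no order.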
